A study of Mus musculus with 6 samples.

Results

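The genes described here are the well measured noncoding RNA genes of GFP+ cells that descend from grafted haematopoietic stem cells (HSCs), the cells of the marrow that give rise to every blood lineage. A gene was included when every accession listed for its symbol was a noncoding (NR_) one and it had at least 200 read counts in each of the 6 libraries, with the ribosomal precursor gene Rn45s left out. This gave 79 of 25033 gene symbols. Of 4248 symbols with only noncoding accessions, 1500 had a count in any library and 590, the 79 included, passed the filter for testing. The genes were selected on their counts in both groups, so that their abundance is not a result. By their lowest count in any library, the genes just inside the limit were Gm17644 (206), 9130221H12Rik (206) and Snhg3 (207), and those just outside were Thap6 (196), 2700099C18Rik (195) and 2810025M15Rik (194).

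HSCs had received either a control RNA (3 libraries) or a miR-31-5p inhibitor (3 libraries) before they were transplanted, and their GFP+ progeny were sorted from recipient marrow. All 6 samples were labelled as haematopoietic stem cells from bone marrow of C57BL/6J mice at 6 months. The labels give no genotype beyond the strain. The sources used here do not give the time from transplantation to sorting, the recipients' conditioning or the number of mice behind a library. No label says that replicate libraries were made from different mice. The p-values therefore reflect the spread of these samples alone, and that spread may be technical.

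Libraries held 16873188 to 21245861 counts, of which the 79 genes took 0.504, 0.503 and 0.527% in controls 1, 2 and 3 and 0.569, 0.613 and 0.617% in inhibitor libraries 1, 2 and 3. Without Malat1 the shares were 0.414, 0.412 and 0.423% against 0.435, 0.444 and 0.451%. Libraries of the same group differed beyond counting noise (chi-square over its degrees of freedom 3.81 to 15.9 for control pairs, 3.04 to 4.23 for inhibitor pairs). Pairs from different groups gave 36.1 to 54.8. Control library 1 differed from the other controls (13.4 and 15.9), and in a way that varied with transcript length, as described further down. Of the 11 HSC markers listed, 3 rose, 2 fell and 6 missed the threshold. Together they summed to 1039 to 1072 CPM (TMM-normalised) in controls and 1097 to 1144 in inhibitor libraries, and none was at 0 in every library. Megakaryocyte and platelet markers (8 of 8 higher) summed to 1506 to 1751 CPM in controls and 3799 to 3932 in inhibitor libraries. Monocyte and macrophage markers (1 of 6 higher, 2 lower) summed to 3626 to 3719 and 2279 to 2349 CPM. The part of these marker differences in the changes below was not tested. In bulk RNA, fewer cells of a type and less RNA per cell cannot be told apart.

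Long noncoding RNAs (lncRNAs) are transcripts without a known protein product, and several act in the nucleus. Malat1 lies in nuclear speckles, sites rich in splicing factors, and Neat1 is the scaffold of paraspeckles. Other noncoding transcripts serve mainly as hosts: small nucleolar RNAs (snoRNAs), which guide the chemical modification of ribosomal RNA, are cut from their introns, and microRNAs are cut from hairpins within them. The spliced exons that remain of many snoRNA hosts are exported and removed by nonsense-mediated decay. In blood cells the miR-17-92 cluster is known for promoting proliferation and survival of progenitors, and miR-223 for its part in the granulocyte lineage.

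By RefSeq on GRCm38.p6 the 79 genes comprised 59 lncRNAs, 15 transcribed pseudogenes and 5 genes now listed as protein coding (0610012G03Rik, 1810058I24Rik, 6430706D22Rik, BC029722 and D930016D06Rik). For these 5 the annotation goes against the noncoding accessions of the files. Among the lncRNAs, 13 spanned annotated snoRNA genes (40 in all), 3 spanned annotated microRNA genes without being snoRNA hosts, and 43 spanned neither. Of all 79, 47 carried only a clone, locus or number as a name.

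The microRNAs of the 2 hosts whose levels differed between groups are shown because host RNA and microRNA come from one precursor, together with the inhibitor's target. Sequences are the mature arms of RefSeq on GRCm38.p6, 5′ to 3′, with the seed (bases 2 to 8) in capitals. The first 6 lie in the Mir17hg cluster and miR-223-3p lies in F630028O10Rik.
miR-17-5p: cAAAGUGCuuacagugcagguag
miR-20a-5p: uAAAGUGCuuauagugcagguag
miR-18a-5p: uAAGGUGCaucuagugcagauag
miR-19a-3p: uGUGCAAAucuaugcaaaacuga
miR-19b-3p: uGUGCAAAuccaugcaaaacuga
miR-92a-3p: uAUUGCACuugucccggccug
miR-223-3p: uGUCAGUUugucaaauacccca
miR-31-5p: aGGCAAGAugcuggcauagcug
MiR-17-5p and miR-20a-5p share the seed AAAGUGC, and miR-19a-3p and miR-19b-3p share GUGCAAA. None of the other seeds shown is shared within this set. Mature microRNAs were not measured in these libraries.

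Inhibitor and control libraries were compared to ask which of these RNAs differed in HSC-derived cells after inhibition of miR-31-5p in the graft. By the quasi-likelihood test of edgeR, with Benjamini-Hochberg adjustment over all 12978 genes tested, 18 of the 79 were higher in the inhibitor group, 11 were lower and 50 did not pass an adjusted p of 0.05. Of all genes tested, 20.4% were higher and 20.1% lower. The called share of the 79 (36.7%) was near the background of 40.5%, and so is no result about these genes as a class. Their median log2 change was 0.05, beside -0.01 over all genes tested. Of 8786 genes with a coding accession and at least 200 counts in every library, 43.4% were called, with a median of -0.03. The groups did not overlap in 36 of the 79 (45.6%), beside 52.4% of all genes. The count of lower genes was 6 without inhibitor library 3. After a loess correction for GC content and length it was 17 with 16 higher, and the calls over all genes then moved from 2646 higher and 2613 lower (50.3% higher) to 2293 and 4201 (35.3% higher).

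Changes were mostly small. Of the 79, 4 (5.06%) were called with a change of at least 1.5-fold, where 12.9% of all genes tested and 6.48% of the well measured coding genes were. The share is near that of the well measured coding genes, and so is no result about the 79 as a class. All 4 were higher in the inhibitor group: Gpr137b-ps, AI504432, H2-Q5 and Malat1. The largest fall, in Snhg3, was 1.48-fold. Of the 43 lncRNAs that host no small RNA, 9 were higher and 7 lower (37.2% called). That share is near the 40.5% of all genes tested and no result about this class. The 50 genes that did not pass ranged from a log2 change of -0.42 (Kcnq1ot1) to 0.20 (Snhg1).

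**Figure D1:**
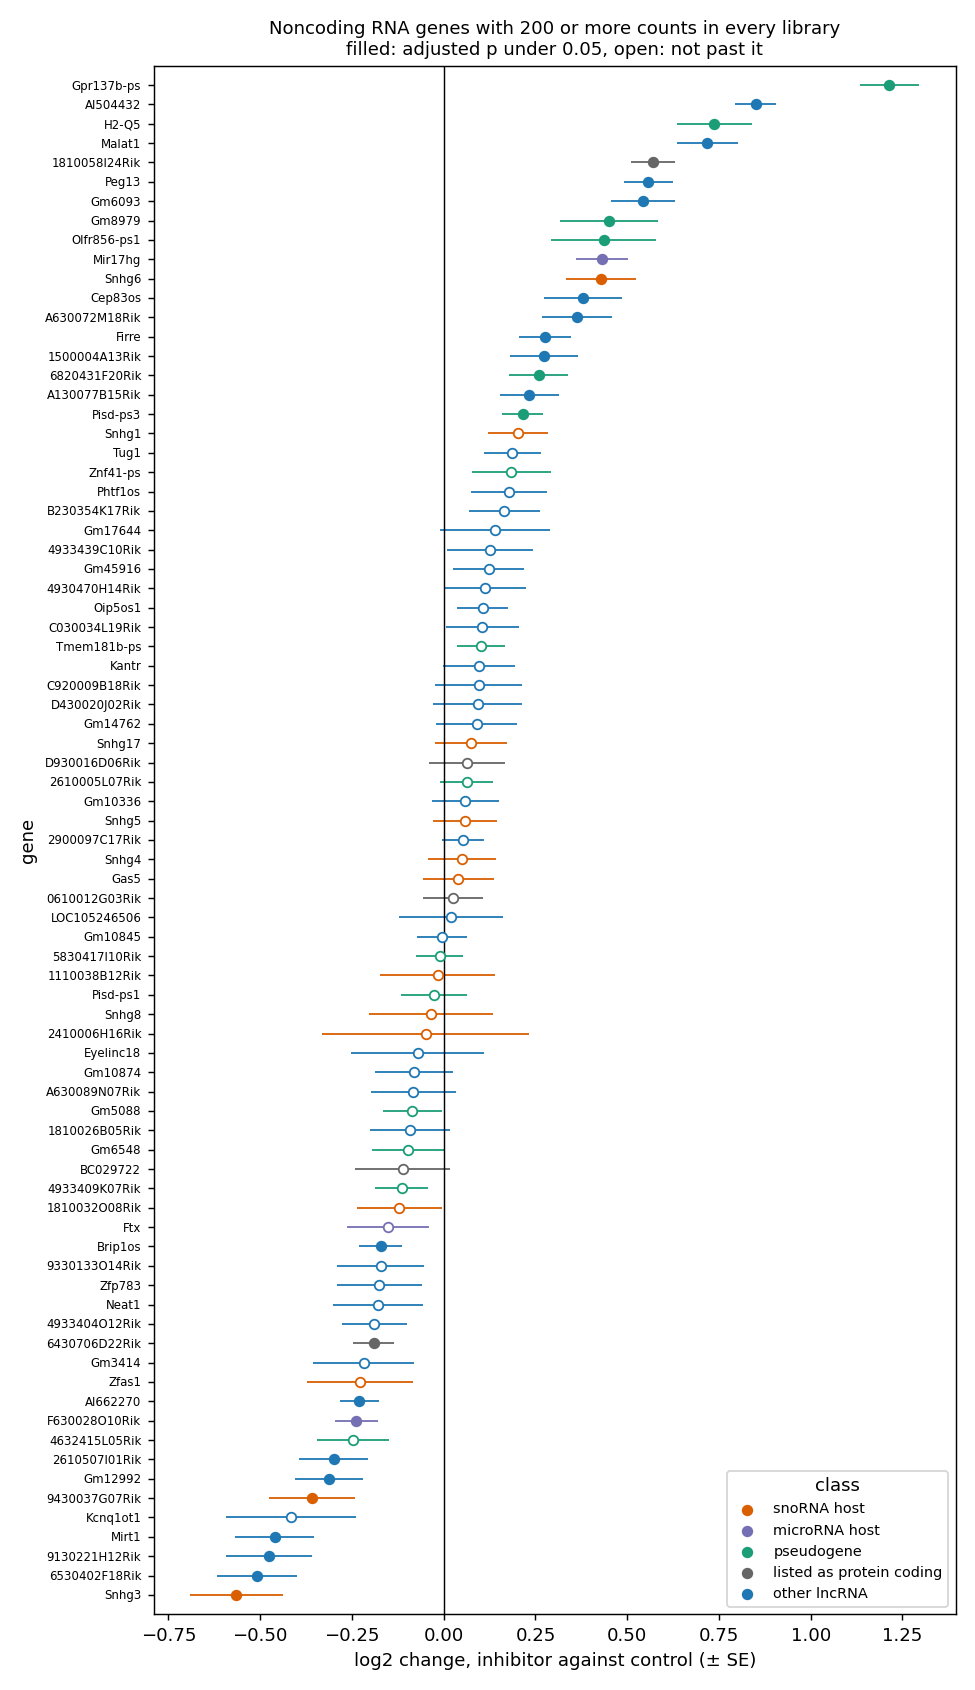
Log2 change (inhibitor against control) with its standard error for each of the 79 genes, ordered by change and coloured by class. Filled points passed an adjusted p of 0.05 (18 higher, 11 lower) and open points did not. Gpr137b-ps stands highest at 1.21 and Snhg3 lowest at -0.56.

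**Figure D2:**
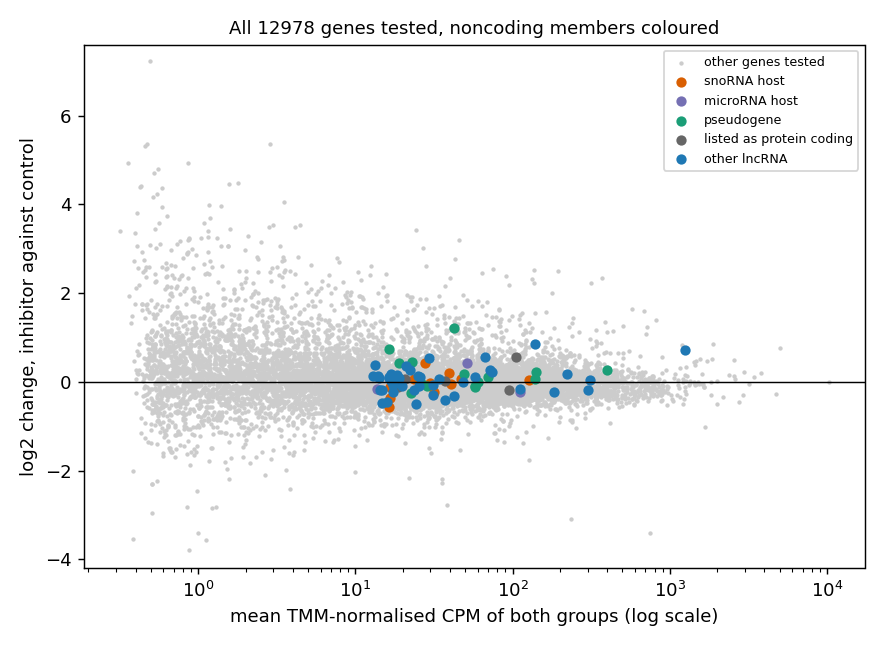
Log2 change against mean TMM-normalised CPM (log scale) for the 12978 genes tested (grey), with the 79 genes coloured by class. The coloured points lie between -0.56 and 1.21, while single grey points of low level reach 7.23 and -3.78.

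Malat1, the nuclear speckle RNA (chr19:5795690-5802672, minus strand), was the most abundant of the 79 by CPM and rose. Its level was 914, 903 and 1034 CPM in the controls and 1341, 1687 and 1659 CPM in the inhibitor libraries, in the order of their numbers, as throughout. Every inhibitor library lay above every control, and inhibitor library 1 was the lowest of its group. The log2 change was 0.72 ± 0.08 (SE, edgeR adjusted p = 1.80e-05), or 1.64-fold. It was 0.79 without control libraries 1 and 3, where the lone control is assumed to vary like the inhibitor libraries and the call was lost (edgeR adjusted p = 0.116). Malat1 alone took 0.0900 to 0.104% of control counts and 0.134 to 0.169% of inhibitor counts.

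Neat1, the paraspeckle scaffold and Malat1's neighbour on chromosome 19, did not pass. It was counted with a longest transcript of 3185 bases, while GENCODE M21 holds one of 20771 bases. The longer transcript was not measured on its own. The level counted for Neat1 was 393, 267 and 298 CPM in controls and 270, 288 and 289 CPM in inhibitor libraries. The groups overlapped, with control libraries 1 and 3 above and control library 2 below all inhibitor libraries. The log2 difference was -0.18 ± 0.12 (SE, edgeR adjusted p = 0.277). Without control library 1 it was -0.0040 (edgeR adjusted p = 0.955), so that the difference rested on that library. It was -0.29 and past the threshold without control library 2 (edgeR adjusted p = 0.0245), and 0.07 without control libraries 1 and 3. Of 16 paraspeckle and nuclear speckle protein genes tested, 10 were lower, none was higher and 6 missed the threshold (median log2 change -0.23). The called share was 62.5%, where 40.5% of all genes tested were called and 20.1% were lower. The splicing repressor gene Hnrnpm fell by 0.41 on the log2 scale, the cleavage factor gene Nudt21 by 0.33 and the paraspeckle protein gene Rbm14 by 0.27.

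Other lncRNAs of the nucleus or of chromosome regulation went in different directions. Firre, an X-linked repeat-rich RNA that binds Hnrnpu, was at 65.0, 61.6 and 67.0 CPM in controls and 71.1, 79.6 and 83.8 CPM in inhibitor libraries. Every inhibitor library was above the controls, and the log2 rise was 0.28 ± 0.07 (SE, edgeR adjusted p = 0.00582). After correction for GC content and length it was 0.14 and no longer passed (edgeR adjusted p = 0.0682). Tug1, an RNA found in nucleus and cytoplasm, was at 180, 222 and 222 CPM in controls and 229, 228 and 254 CPM in inhibitor libraries. Its groups did not overlap, control library 1 was the lowest, and the log2 difference of 0.19 ± 0.08 (SE) did not pass (edgeR adjusted p = 0.0671). It passed without control library 2 (0.24, edgeR adjusted p = 0.028) and without control library 3 (0.24, edgeR adjusted p = 0.0427), and was 0.09 without control library 1 (edgeR adjusted p = 0.104) and 0.016 after correction for GC content and length. Kcnq1ot1, the antisense RNA that silences imprinted genes around Kcnq1, was at 33.3, 38.2 and 55.6 CPM in controls and 27.8, 34.7 and 33.0 CPM in inhibitor libraries. Control library 3 was the highest, the groups overlapped, and the log2 difference was -0.42 ± 0.18 (SE, edgeR adjusted p = 0.0892). It was -0.17 without control library 3 (edgeR adjusted p = 0.264) and -0.19 after correction for GC content and length. Ftx, an RNA of the X-inactivation centre, is described with the microRNA hosts. Of 11 partner genes of Xist RNA, 4 were lower, 0 higher and 7 did not pass (8 called after correction for GC content and length). The called share of 36.4% is near the 40.5% of all genes tested and no result about this list. The lamin B receptor gene Lbr fell by 0.53, Hnrnpu by 0.29 and Hnrnpk by 0.24 on the log2 scale.

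Peg13, a paternally expressed imprinted RNA within an intron of Trappc9 (chr15:72805602-72810324, minus strand), rose. It was at 56.8, 50.6 and 54.2 CPM in controls and 80.8, 82.0 and 75.0 CPM in inhibitor libraries. The groups were well apart, with a log2 change of 0.56 ± 0.07 (SE, edgeR adjusted p = 8.92e-06). The surrounding gene Trappc9 went from 46.1 ± 1.23 to 50.5 ± 2.18 CPM (SD, n = 3), a log2 difference of 0.13 ± 0.07 (SE) that did not pass (edgeR adjusted p = 0.135). AI504432 (chr3:107039504-107054322, plus strand), an RNA without a named role, was at 95.3, 104 and 99.1 CPM in controls and 181, 175 and 181 CPM in inhibitor libraries. The ranges were far apart, and the rise of 0.85 ± 0.06 (SE, edgeR adjusted p = 9.43e-09) corresponded to 1.80-fold. Gm6093 rose by 0.54 ± 0.09 (SE), from 24.0 ± 1.32 to 35.03 ± 2.32 CPM (SD, n = 3). All 3 of these rises passed under each of the 17 alternative fits.

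**Figure D3:**
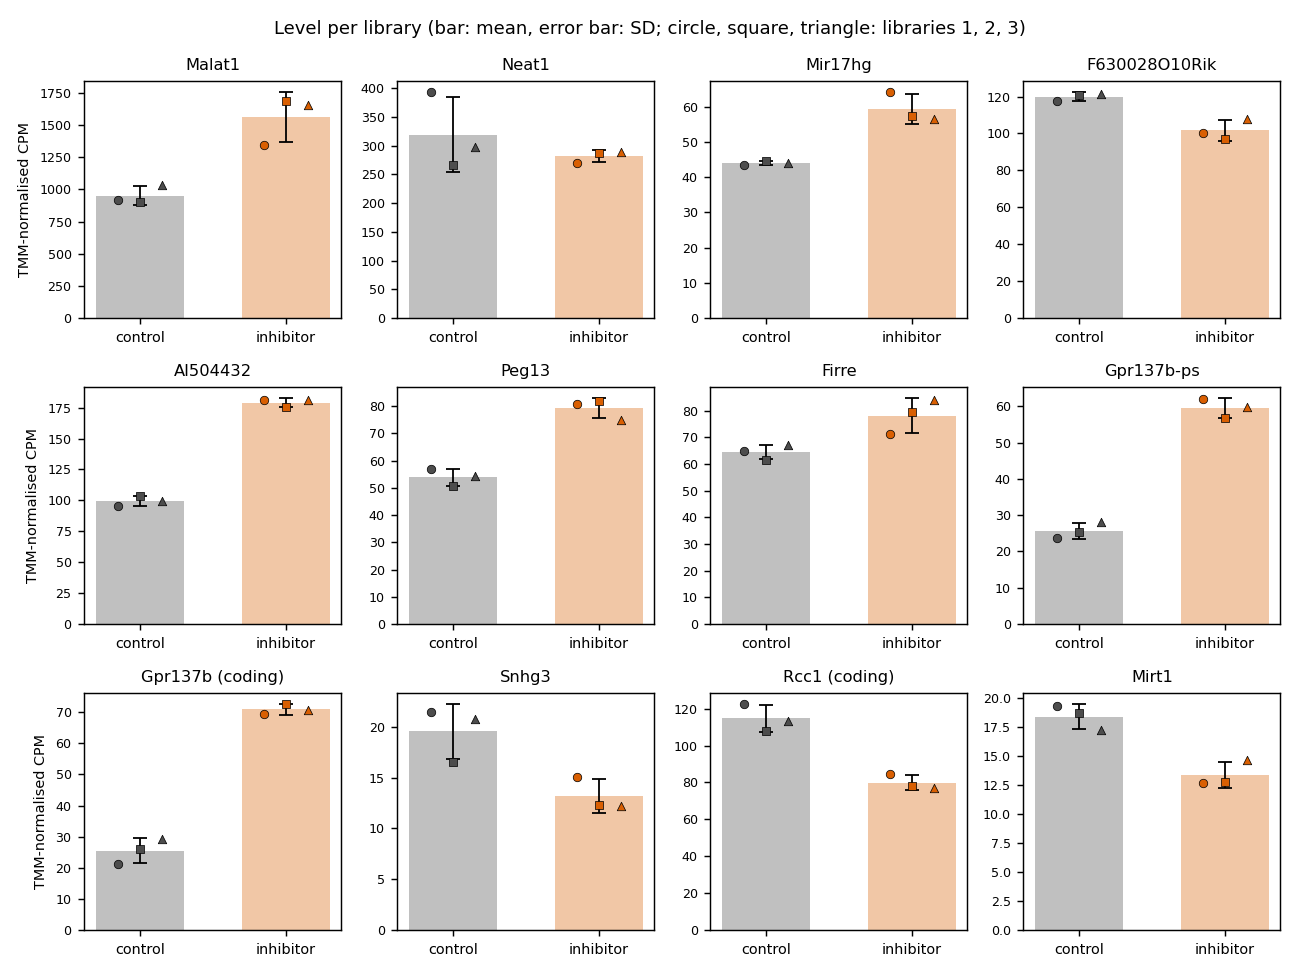
TMM-normalised CPM in each library for 10 of the noncoding genes and the coding genes Gpr137b and Rcc1; bars are means, error bars SD (n = 3), and circle, square and triangle mark libraries 1, 2 and 3. In Malat1, Mir17hg, AI504432, Peg13, Firre and Gpr137b-ps every inhibitor point lies above every control point, in F630028O10Rik, Snhg3 and Mirt1 every one lies below, and in Neat1 control library 1 stands above all others at 393 CPM.

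The 2 microRNA hosts that passed the test moved in opposite directions. Mir17hg, the host of the miR-17-92 cluster whose sequences are given above, was at 43.3, 44.6 and 44.0 CPM in controls and 64.0, 57.4 and 56.4 CPM in inhibitor libraries. The controls lay close together and below every inhibitor library, of which library 1 was the highest. The log2 change was 0.43 ± 0.07 (SE, edgeR adjusted p = 0.000181), or 1.35-fold. The RefSeq gene model spans chr14:115044390-115046728 on the plus strand, so that the hairpins from Mir17 to Mir20a lie before its annotated start and only Mir92-1 lies wholly within it. GENCODE M21 gives the gene a longer span that holds all 6 hairpins. Which exons the counted reads came from was not analysed here.

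F630028O10Rik (chrX:96239926-96243642, plus strand) spans Mir223, whose miR-223-3p carries the seed GUCAGUU. It was at 117, 121 and 122 CPM in controls and 100, 96.9 and 108 CPM in inhibitor libraries. All inhibitor libraries were below the controls, and the fall was 0.24 ± 0.06 on the log2 scale (SE, edgeR adjusted p = 0.0046). The fall grew to 0.39 on the log2 scale after correction for GC content and length. Beside it, 5 of the 8 neutrophil and precursor markers were higher and 3 lower, their summed level was 5870 to 6561 CPM in controls and 5261 to 5358 in inhibitor libraries, and none was at 0 in every library. Their part in this fall was not tested. Ftx, which spans Mir421 and Mir374b, was at 12.8, 15.2 and 15.2 CPM in controls and 12.4, 13.2 and 13.4 CPM in inhibitor libraries. Its groups overlapped through control library 1, and the log2 difference was -0.15 ± 0.11 (SE, edgeR adjusted p = 0.303). Mirt1 was placed among microRNA hosts for its name only and holds no annotated microRNA. It went from 19.3, 18.7 and 17.2 CPM to 12.7, 12.8 and 14.7 CPM, a log2 fall of 0.46 ± 0.11 (SE, edgeR adjusted p = 0.00303) with no overlap.

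Of 15 genes that make and use microRNAs, 2 were higher, 3 lower and 10 did not pass. The called share of 33.3% is near the 40.5% of all genes and no result about this list, and its median was -0.02. Prkra, which encodes a Dicer partner, rose by 0.36 ± 0.09 (SE) and the Argonaute gene Ago3 by 0.42 ± 0.13, and the silencing scaffold gene Tnrc6c fell by 0.22 on the log2 scale. The called number was 3 without control library 3, 2 without inhibitor library 2 and 11 after correction for GC content and length.

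Matches to the miR-31-5p seed were sought in the transcripts of 64 of the 79 genes with a GENCODE M21 transcript, as the 7 letters TCTTGCC on the transcript's own strand. A match was found in 19 (29.7%), whose median length was 4212 bases, and none in 45, of median length 2521. Among other tested noncoding genes 52 of 410 (12.7%) held one, with a median length of 2456 bases, so that the sets differ in length. Of the 19 with a match 3 were higher and 2 lower, and of the 45 without 12 were higher and 7 lower. Median log2 changes were 0.02 and 0.06. Over all genes tested, 20.4% were higher and 20.1% lower. Whether a match went with a change was not tested. The longer match TCTTGCCA occurred in 6 genes, of which Brip1os and F630028O10Rik were lower and none was higher (median log2 change -0.18). Among the other tested noncoding genes 23 of 410 held it, of which 1 was higher and 0 lower (median 0.12). The windows of Brip1os and F630028O10Rik are shown because these are the called genes of the 79 with the longer match. The 7-letter match is in capitals.
F630028O10Rik: ttattacatatTCTTGCCatgatttcatgg
Brip1os: tagaaggaggaTCTTGCCagaaataagact
A match is a stretch of letters and not a measured site. Brip1os fell by 0.17 ± 0.06 on the log2 scale (SE, edgeR adjusted p = 0.0291), from 120, 120 and 111 CPM to 101, 108 and 103 CPM, and it lost its call without control library 2 (edgeR adjusted p = 0.0876), inhibitor library 1 (edgeR adjusted p = 0.122) or inhibitor library 3 (edgeR adjusted p = 0.104). By DESeq2 its adjusted p was 0.05003. It was named for its match, after its values were seen.

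Of the 13 snoRNA hosts, Snhg6 was higher, Snhg3 and 9430037G07Rik were lower, and 10 did not pass. The called share of the hosts was 23.1%, beside 40.5% of all genes tested. Their own median log2 change was -0.02. Without control library 1, or after correction for GC content and length, 5 were called. Snhg6, host of Snord87, was at 23.5, 24.4 and 23.2 CPM in controls and 29.6, 29.9 and 36.3 CPM in inhibitor libraries. Inhibitor library 3 was the highest and no library of one group reached the other, and the log2 rise was 0.43 ± 0.10 (SE, edgeR adjusted p = 0.0023). Snhg3, host of Snora73a and Snora73b (chr4:132351933-132353686, minus strand), was at 21.4, 16.5 and 20.7 CPM in controls and 15.1, 12.3 and 12.2 CPM in inhibitor libraries. Control library 2 was nearest to the inhibitor range but did not enter it. The log2 fall was 0.56 ± 0.13 (SE, edgeR adjusted p = 0.00227). Without control libraries 1 and 3 it was 0.32 and did not pass (edgeR adjusted p = 0.116). 9430037G07Rik, which holds 1 annotated snoRNA, went from 15.8, 18.99 and 20.9 CPM to 14.995, 13.7 and 14.8 CPM. Its control library 1 lay just above the inhibitor range, and the log2 fall was 0.36 ± 0.12 (SE, edgeR adjusted p = 0.0226). That call was lost without control library 2 (edgeR adjusted p = 0.0528), control library 3 (0.26, edgeR adjusted p = 0.131), inhibitor library 2 (edgeR adjusted p = 0.0891) or inhibitor library 3 (edgeR adjusted p = 0.0593).

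Gas5, host of 9 annotated snoRNAs and the highest of the 79 per length (mean deposited RPKM 195), was at 149, 108 and 118 CPM in controls and 126, 127 and 134 CPM in inhibitor libraries. Control library 1 lay above and the other controls below all inhibitor libraries, and the log2 difference was 0.04 ± 0.10 (SE, edgeR adjusted p = 0.769). Without control library 1 it was 0.18 and past the threshold (edgeR adjusted p = 0.00312). 2410006H16Rik, host of Snord49a, Snord49b and Snord65, had its libraries in a like order, at 59.2, 28.4 and 35.7 CPM in controls and 37.7, 43.5 and 37.9 CPM in inhibitor libraries. Its log2 difference of -0.05 ± 0.28 (SE, edgeR adjusted p = 0.908) turned to 0.30 without control library 1 (edgeR adjusted p = 0.00534) and to 0.48 without control libraries 1 and 3 (edgeR adjusted p = 0.000389). Snhg1, with 8 snoRNAs, was at 34.9, 40.6 and 34.5 CPM against 41.1, 41.7 and 43.8 CPM. Its groups did not overlap, the log2 difference was 0.20 ± 0.08 (SE, edgeR adjusted p = 0.0583), and it passed without control library 2 (0.29, edgeR adjusted p = 0.0133) and after correction for GC content and length (0.28, edgeR adjusted p = 0.00445). Without control libraries 1 and 3 it was 0.05 (edgeR adjusted p = 0.745). The remaining hosts 1110038B12Rik, 1810032O08Rik (Snhg16 in RefSeq), Snhg4, Snhg5, Snhg8, Snhg17 and Zfas1 had log2 differences from -0.23 (Zfas1) to 0.07 (Snhg17) and did not pass. Without control library 1, Zfas1 was at -0.0062, 1110038B12Rik turned from -0.02 to 0.19 and Snhg8 from -0.03 to 0.21, all without passing. After correction for GC content and length 1110038B12Rik was 0.39 and passed (edgeR adjusted p = 0.00119).

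**Figure D4:**
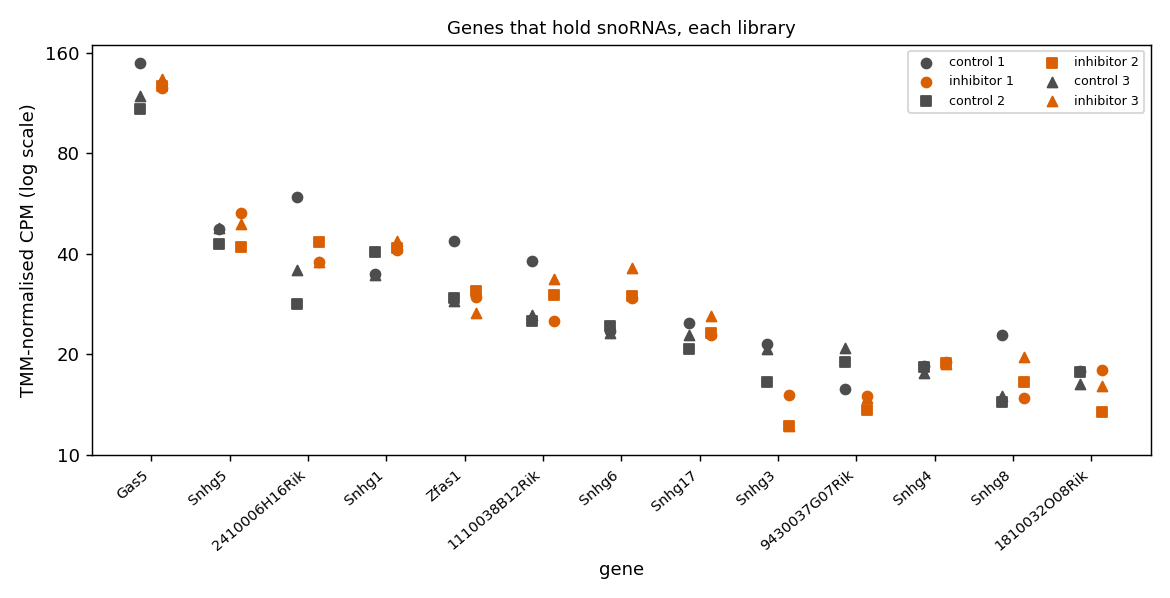
TMM-normalised CPM (log scale) of the 13 snoRNA hosts in each library, controls grey and inhibitor libraries orange, with circle, square and triangle for libraries 1, 2 and 3. In Gas5, 2410006H16Rik, Zfas1, 1110038B12Rik and Snhg8 the grey circle of control library 1 lies above the other 5 libraries, and in Snhg6 all orange points lie above all grey ones.

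Host transcripts of snoRNAs often begin with a terminal oligopyrimidine tract, a run of C and T at the cap site that is also typical of ribosomal protein genes. Such a tract, counted here as a C followed by at least 4 bases of C or T and beginning within 5 bases of an annotated start, was read on the gene's own strand from RefSeq promoter windows on GRCm38.p6. It was present in 6 of 11 snoRNA hosts with a window (54.55%), in 9 of 37 other genes of the 79 (24.32%), in 30 of 64 ribosomal protein genes (46.88%) and in 21.16% of all 27025 RefSeq genes with a window. The 6 hosts are shown over 30 bases around the start, 5′ to 3′, with the tract in capitals, as the hosts in which one was found. The other annotated start of Gas5 has no tract.
Gas5: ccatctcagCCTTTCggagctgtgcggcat
2410006H16Rik: cgccgtCTTTCTCTgcggccatcatgggat
1110038B12Rik: gcacacgggtCTCTTTgtgcacccgcccac
Snhg8: gttcagaagtCTCTTTggctgcgatccgcc
Snhg3: gaccacgcctgaCTTCCgggcgttacttaa
9430037G07Rik: aaggtcacttgCTTTCTggttccttagtcc
The windows lie at chr1:161035156-161035185, chr11:62602867-62602896, chr17:34952449-34952478, chr3:123508317-123508346, chr4:132353667-132353696 and chr9:88599224-88599253 in the order shown. Of these 6, Snhg3 and 9430037G07Rik were lower in the inhibitor group and the other 4 did not pass. Snhg6, the only host that was higher, and Snhg4 had no window, and whether a tract went with the direction of change was not tested. The 5 hosts with a window and the highest ratios of control library 1 to the other controls include Zfas1, which has no tract. The others, Gas5, 2410006H16Rik, 1110038B12Rik and Snhg8, carry one. A match describes these letters and is not a measured start or a cause.

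Control library 1 was high for short members. Among the 13 of the 79 genes with a longest transcript of at most 1200 bases, the median log2 ratio of control library 1 to the mean of the other controls was 0.20, and 10 were above 0. Among 26 genes of over 1200 to 3000 bases the median was -0.07, and among 40 longer ones -0.09. All genes with 200 counts in every library showed the same order, with medians of 0.22 over 831 short genes (735 above 0), 0.07 over 3555 and -0.07 over 4480. The change between groups also varied with length over these genes. Its median log2 value was -0.18 for the 831 (76 higher, 315 lower), -0.07 for the 3555 and 0.02 for the 4480 (1087 higher, 828 lower). Among the 79 genes these medians were -0.02, 0.08 and 0.06. The cause was not tested. Spearman's rho of the ratio with length was -0.35 over the 79 genes, given as a description because all points share the same libraries. The highest ratios were those of 2410006H16Rik (0.89), Eyelinc18 (0.71), Snhg8 (0.64), Zfas1 (0.59) and 1110038B12Rik (0.57). Eyelinc18, which RefSeq lists as a lncRNA under the symbol Rps18-ps4, was at 43.0, 24.2 and 28.5 CPM in controls and 31.4, 29.4 and 30.2 CPM in inhibitor libraries. Its log2 difference of -0.07 ± 0.18 (SE, edgeR adjusted p = 0.786) turned to 0.20 without control library 1 (edgeR adjusted p = 0.068), and to 0.32 without control libraries 1 and 3, where it passed (edgeR adjusted p = 0.0326). Rn45s had 20039, 3667 and 61656 counts in controls and 1784 to 3145 in inhibitor libraries.

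**Figure D5:**
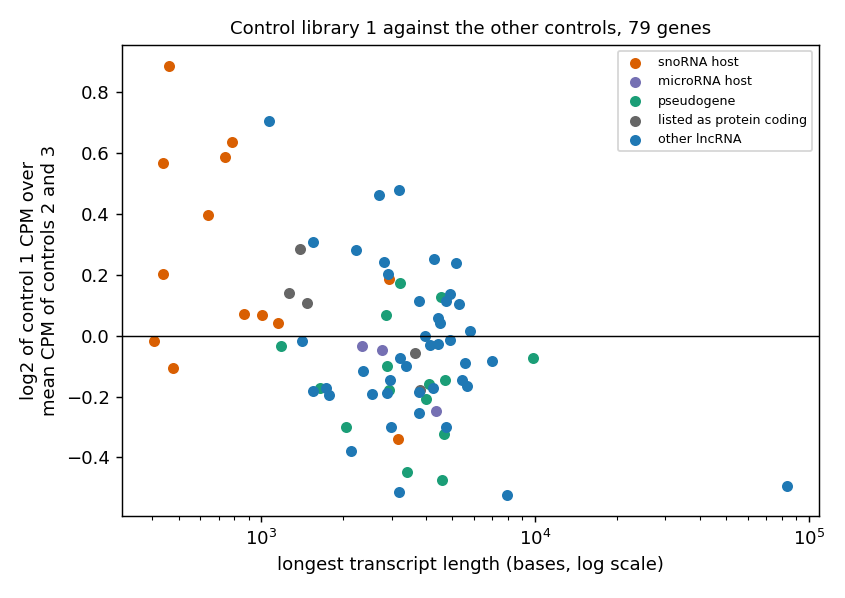
Log2 ratio of control library 1 to the mean of control libraries 2 and 3 against the longest transcript length (bases, log scale) for each of the 79 genes, coloured by class. Of the 13 genes up to 1200 bases, 10 lie above 0, with 2410006H16Rik highest at 0.89.

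Genes for the proteins that assemble snoRNAs, and coding genes that also host snoRNAs, were lower more often than higher. The same held among the 8786 well measured coding genes, of which 2146 were lower and 1671 higher. Of all genes tested, 40.5% were called. Of 16 genes for snoRNA-protein particle components and assembly factors, 12 were lower (75%), none was higher and 4 missed the threshold (median -0.41). Nolc1, a nucleolar chaperone gene, fell by 0.58, the pseudouridine synthase gene Dkc1 by 0.51 and the ribosomal RNA methyltransferase gene Fbl by 0.49 on the log2 scale. Of 43 coding snoRNA hosts, 14 were lower, 2 higher and 27 missed the threshold (37.2% called, median -0.11). Ncl, which encodes nucleolin, fell by 0.49 and Rcc1 by 0.52. Of 20 genes for nonsense-mediated decay factors, 5 were lower (Upf1 by 0.21, Eif4a3 by 0.23 and Rbm8a by 0.53 on the log2 scale among them), 0 higher and 15 did not pass. The number called became 8 when control library 1 or control library 2 was left out, 3 when inhibitor library 3 was, and 14 after correction for GC content and length. With all libraries and no such correction, 37.2% of the coding hosts and 25% of the decay factors were called. Both shares are below the 40.5% of all genes and no result about either list.

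Gpr137b-ps (chr13:12614065-12650395, minus strand), a transcribed pseudogene named after a gene for a lysosomal membrane protein, had the largest rise. It was at 23.6, 25.3 and 28.02 CPM in controls and 62.1, 56.8 and 59.7 CPM in inhibitor libraries. The groups were far apart, with a log2 change of 1.21 ± 0.08 (SE, edgeR adjusted p = 1.07e-08), or 2.32-fold. Gpr137b itself went from 21.2, 25.99 and 29.1 CPM to 69.4, 72.6 and 70.7 CPM, a log2 rise of 1.48 ± 0.09 (SE, edgeR adjusted p = 8.88e-09). Reads of the pair could have been split by the counting, so that the pseudogene's own level is uncertain.

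Of the 15 pseudogenes, 6 were higher (40%), 0 lower and 9 did not pass. The called share is near the 40.5% of all genes tested and no result about pseudogenes as a class. The others of the 6 were H2-Q5, Gm8979, Olfr856-ps1, 6820431F20Rik and Pisd-ps3. H2-Q5, a class I histocompatibility gene with near-identical relatives, rose by 0.74 ± 0.10 (SE), from 12.0, 12.1 and 12.5 CPM to 19.4, 19.8 and 21.8 CPM, without overlap. Its share of reads from other class I genes is uncertain. Gm8979 rose by 0.45 ± 0.13 (SE) and lost its call without inhibitor library 2 (edgeR adjusted p = 0.0609) or 3 (edgeR adjusted p = 0.0787). Olfr856-ps1 rose by 0.44 ± 0.14 (SE), with inhibitor library 3 at 27.8 CPM above the 18.9 and 18.7 CPM of the others. Without that library the value was 0.23 (edgeR adjusted p = 0.154), and without control library 2 the call was also lost (edgeR adjusted p = 0.0514). Pisd-ps3 rose by 0.22 ± 0.06 (SE), while Pisd, which makes phosphatidylethanolamine in mitochondria, fell by 0.21 on the log2 scale (edgeR adjusted p = 0.0407). The related Pisd-ps1 was at 25.1 to 27.2 CPM in controls and 24.3 to 27.8 CPM in inhibitor libraries.

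Among the 5 genes that RefSeq lists as protein coding, 1 was higher, 1 lower and 3 did not pass. The called share of 40% is near the 40.5% of all genes tested and no result about these 5. The higher one, 1810058I24Rik, which encodes a small mitochondrial protein, was at 90.2, 80.4 and 83.2 CPM in controls and 127, 125 and 124 CPM in inhibitor libraries. The groups were apart and the log2 rise was 0.57 ± 0.06 (SE, edgeR adjusted p = 1.96e-06). 6430706D22Rik, which RefSeq places in the centromeric histone chaperone gene Hjurp, went from 101 ± 3.11 to 88.7 ± 0.893 CPM (SD, n = 3), a log2 fall of 0.19 ± 0.06 (SE). The separate Hjurp entry fell by 0.20 on the log2 scale, from 209 ± 9.49 to 183 ± 1.36 CPM (SD, n = 3). The call of 6430706D22Rik was lost without control library 2 (edgeR adjusted p = 0.0583), inhibitor library 2 (edgeR adjusted p = 0.0568) or inhibitor library 3 (edgeR adjusted p = 0.054), and that of Hjurp without control library 3 (edgeR adjusted p = 0.0688).

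Several of the 79 genes share bases or a promoter region with a coding gene. There were 36 tested pairs in 32 of the genes, either overlapping or starting within 5000 bases on opposite strands. In 4 pairs both were lower, in 1 they were called in opposite directions, in 15 only one was called and in 16 neither. Snhg3 overlaps Rcc1, the gene for a chromatin-bound exchange factor, on the same strand with 135 shared exon bases. Rcc1 was at 122, 108 and 114 CPM in controls and 84.7, 78.3 and 76.7 CPM in inhibitor libraries, a fall of 0.52 ± 0.06 (SE, edgeR adjusted p = 1.31e-05). 9130221H12Rik fell by 0.48 and its partner Gsk3a, with 820 shared bases on the other strand, by 0.23. Gm12992 fell by 0.31 and its partner Srsf4, with 1532 shared bases, by 0.19; without inhibitor library 3 the value of Gm12992 was -0.20 and no longer passed (edgeR adjusted p = 0.0786). 2610507I01Rik and the mitochondrial ribosomal protein gene Mrpl55, which start 55 bases apart and share no exon bases, both fell by 0.30 on the log2 scale. The call of 2610507I01Rik was lost without control library 3 (edgeR adjusted p = 0.0663), inhibitor library 2 (edgeR adjusted p = 0.072) or inhibitor library 3 (edgeR adjusted p = 0.0829). The pair in opposite directions was Brip1os, which fell, and the Mediator kinase module gene Med13, which rose by 0.46 ± 0.09 (SE) and shares 800 bases with it. The sources used here do not say whether counting used the strand. For the 21 genes found to share exon bases with a coding gene, reads of the 2 genes cannot be told apart. A coding gene to which a gene was itself matched in GENCODE, as Lcorl for Gm3414, was not counted. Shared exon bases could not be found for genes without a GENCODE match, such as Gm45916. The number 21 is therefore a lower limit.

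The fall of 6530402F18Rik, an RNA without a named role that shares 558 bases with Ntng2, was 0.51 ± 0.11 on the log2 scale (SE, edgeR adjusted p = 0.00178), from 31.9, 26.04 and 27.5 CPM to 22.8, 19.3 and 17.8 CPM. Ntng2 was at 10.7 CPM in both groups, with a log2 difference of 0.00 ± 0.13 (SE). AI662270, among the 5 highest per length (mean deposited RPKM 128), was at 197, 198 and 200 CPM in controls and 169, 174 and 165 CPM in inhibitor libraries. The groups were apart, and the fall of 0.23 ± 0.05 on the log2 scale (SE, edgeR adjusted p = 0.00276) had the smallest standard error of the 11.

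The remaining 5 genes that passed, named to complete the count and outside the naming rule, all rose: Cep83os by 0.38, A630072M18Rik by 0.36, 1500004A13Rik by 0.27, 6820431F20Rik (a pseudogene) by 0.26 and A130077B15Rik by 0.23 on the log2 scale. In A130077B15Rik the groups overlapped. A630072M18Rik, at 18.4 CPM in controls and 23.7 CPM in inhibitor libraries (means), shares 5142 exon bases with the coding gene Rsbn1l on the other strand. Rsbn1l was at 92.7 and 103 CPM and did not pass (edgeR adjusted p = 0.103). Reads of these genes cannot be told apart, so that the level of A630072M18Rik itself is uncertain. The call of 1500004A13Rik was lost when any library but control library 1 was left out (edgeR adjusted p of 0.0503 to 0.107). That of 6820431F20Rik was lost without inhibitor library 2 or 3 (edgeR adjusted p = 0.066 and 0.0807), and its value was 0.16 without control library 1. A130077B15Rik lost its call without control library 2 or inhibitor library 2 or 3 (edgeR adjusted p = 0.06, 0.115 and 0.147). After correction for GC content and length, 1500004A13Rik was 0.19 and A130077B15Rik 0.14, and neither passed (edgeR adjusted p = 0.0713 and 0.0843). With control libraries 1 and 3 both left out, 9 of the 29 calls were lost: those of Malat1, Snhg3, Gm8979, Olfr856-ps1, A630072M18Rik, 6820431F20Rik, 9130221H12Rik, Gm12992 and 2610507I01Rik.

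Further well studied RNAs among the 50 that did not pass were chosen after their values were seen. 2900097C17Rik, listed in RefSeq as Norad, a cytoplasmic RNA that binds Pumilio proteins, was at 326, 289 and 304 CPM in controls and 319, 310 and 323 CPM in inhibitor libraries. Oip5os1, also called Cyrano, which directs the destruction of miR-7, was at 50.6, 58.3 and 56.6 CPM in controls and 58.7, 58.6 and 60.9 CPM in inhibitor libraries. Its groups did not overlap, and the log2 difference of 0.11 ± 0.07 (SE) did not pass (edgeR adjusted p = 0.241). 1810026B05Rik, listed as Chaserr, an RNA that restrains the neighbouring chromatin remodeller gene Chd2, was at 22.7, 17.6 and 20.7 CPM against 18.7, 18.1 and 20.4 CPM. Its log2 difference was -0.09 ± 0.11 (SE, edgeR adjusted p = 0.531), while Chd2, with which it shares 2628 exon bases, rose by 0.20 ± 0.05 (SE, edgeR adjusted p = 0.0063).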

How the data were processed

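RNA had been extracted with Trizol and made into libraries with an mRNA kit, per the labels' protocols. The deposited files give, per gene symbol, raw read counts that the authors summed over each symbol's transcripts, and RPKM values that the authors derived from longest transcript length and a library total, per the file headers. The submitters' processing notes name the build mm10 and bcl2fastq 2.20. The sources used here name no aligner, counting tool or strand. Libraries of 16873188 to 21245861 counts set the precision.

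Counts were filtered with filterByExpr (minimum count 10, minimum total 15), scaled by TMM and tested in R 4.3.3 by the quasi-likelihood test of edgeR 4.0.16 (robust), adjusted by Benjamini-Hochberg over 12978 genes with a threshold of 0.05. The procedure was tested on simulated data. Levels are TMM-normalised CPM. Standard errors are the log2 change divided by the root of the F statistic. RPKM was used only for levels between genes. RefSeq (GRCm38.p6) matched 74 of the 79 genes by accession, 3 by symbol and 2 by synonym, and GENCODE M21 matched 74. The promoter table held 48.

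The members and gene lists were chosen with earlier results of these data known. Named genes were all snoRNA and microRNA hosts, the nuclear body list, the 5 highest by RPKM, the 10 largest rises and falls past the threshold without overlap, up to 3 genes per partner list with the smallest p-values, and coding neighbours of those named. Genes near the count limit are named as a description.

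Alternatives were RLE scaling, no filter or a stricter one, DESeq2 1.42.0, limma-voom (limma 3.58.1), the replicate number as a block, each library left out, control libraries 1 and 3 left out together, an adjusted p of 0.1, Rn45s and the 50 most abundant genes left out, thinning to the smallest library, and loess correction for GC content and length (span 0.4). Others changed the members: minimum counts of 100 or 400, and no pseudogenes or overlapping genes. Leaving out genes listed as protein coding, or pseudogenes alone, was chosen after seeing the data. Genes encoded in mitochondria and Mir31hg are not reported.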

Additional observations from a re-analysis of the deposited data

How the results depend on the processing

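All 29 called genes kept their direction in every one of up to 17 alternative fits that held them, and 14 of them passed in each. Of the 50 others, 16 passed under some alternative besides an adjusted p of 0.1, and 31 changed sign under some. With libraries left out in turn, all genes gave 2181 to 2849 higher and 1877 to 2843 lower, and the 79 gave 13 to 20 higher, 6 to 13 lower and medians of 0.02 to 0.05. The ranges of called genes were 2 to 5 for snoRNA hosts, 3 to 8 for nonsense-mediated decay factors and 2 to 6 for microRNA biogenesis. After loess correction 4201 of all genes were lower, 17 of the 79 were lower, and 5 snoRNA hosts, 14 decay factors, 8 Xist partners and 11 biogenesis genes were called. With a minimum of 100 counts (152 genes) 39 were higher and 18 lower, and with 400 (43 genes) 6 were lower. Without pseudogenes and overlapping genes 37 remained, 9 higher and 5 lower. No label says that the replicate numbers pair the samples. Correlations of same-numbered deviations were 0.06, 0.01 and 0.04, and those of other pairs -0.05 to 0.02, which cannot settle whether they do. With the replicate block 5673 genes were called instead of 5259. In that fit 8 decay factors were called, and Kcnq1ot1, Snhg1 and Tug1 passed. At an adjusted p of 0.1, 10 decay factors were called. Without control libraries 1 and 3, 2 biogenesis genes were called. Values of opposite sign were, after loess correction, 0.39 for 1110038B12Rik (which passed), 0.0032 for 1810032O08Rik, 0.35 for 2410006H16Rik, 0.048 for Snhg8, -0.0057 for Oip5os1, -0.092 for 2900097C17Rik and 0.0016 for Eyelinc18. Without control libraries 1 and 3 they were 0.22 for 1110038B12Rik, 0.48 for 2410006H16Rik and 0.32 for Eyelinc18 (both passed), 0.24 for Snhg8, 0.075 for Neat1 and 0.11 for 1810026B05Rik. With thinning 1110038B12Rik was 0.016, and with limma-voom 2410006H16Rik was 0.018. With libraries left out the ranges were -0.12 to 0.19 for 1110038B12Rik, -0.25 to 0.30 for 2410006H16Rik, -0.23 to 0.20 for Eyelinc18, -0.050 to 0.18 for Gas5, -0.081 to 0.018 for Pisd-ps1, -0.021 to 0.15 for Snhg5 and -0.15 to 0.21 for Snhg8. The cause of these changes was not tested. The lowest counts, near 206 in a library, limit how small a change can pass.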

Other observations

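Several noncoding hosts below the limit of 200 counts changed more than the well measured ones, and they are given as values. Mir155hg, host of miR-155, was at 1.05, 1.10 and 1.27 CPM in controls and 5.34, 6.77 and 7.38 CPM in inhibitor libraries, a log2 rise of 2.50 ± 0.22 (SE, edgeR adjusted p = 2.63e-07). Mir22hg rose by 1.02 ± 0.13 (SE), from 9.44, 7.40 and 8.79 CPM to 16.5, 16.2 and 19.2 CPM. Trp53cor1, the p53-induced RNA also called lincRNA-p21, rose by 1.35 ± 0.21 (SE), from 3.01, 2.40 and 2.02 CPM to 7.96, 5.66 and 5.26 CPM. In all 3 the groups did not overlap. Among snoRNA hosts below the limit, Snhg12 fell by 0.72 ± 0.20 on the log2 scale (SE), from 16.7, 9.95 and 11.9 CPM to 8.52, 8.99 and 5.85 CPM, and Snhg15 rose by 0.43 ± 0.15 (SE). Of the other 510 noncoding genes tested, 86 were called (16.9%) and 62 (12.2%) were called with a change of at least 1.5-fold. Over all genes tested these shares were 40.5% and 12.9%. The share at 1.5-fold is thus near that of all genes and no result about these 510.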
